A study of Mus musculus with 10 samples.

Results

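The expression of 9 chemokine receptor genes (Ccr2, Ccr7, Ccr8, Ccr9, Cxcr3, Cxcr4, Cxcr5, Cxcr6 and Cx3cr1) was followed in mouse spleen T cells and in type 2 conventional dendritic cells (cDC2s). The genes were chosen by symbol, and all 9 were found among the 45706 genes of the deposited table. Values are TPM, a transcript level per gene length that sums to one fixed total per library. T cells of Cd47f/f mice gave 2 libraries and T cells of Cd47ΔT mice 2 libraries, and cDC2s of the same genotypes gave 3 and 3. Cd47f/f mice carry loxP-flanked alleles of Cd47, a surface protein that restrains phagocytosis, and are the controls. The name Cd47ΔT stands for deletion of Cd47 in T cells, so cDC2s of these mice come from an animal whose T cells were targeted and not from targeted cells. The sources used here do not name the Cre line that drives the deletion, the deleted exons, the age and sex of the mice or the way the cells were isolated. All cells came from spleen, without a treatment named in the labels. The kits were TruSeq stranded mRNA in T cells and SMART-seq stranded in cDC2s, so cell type and kit cannot be told apart in levels.

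Chemokine receptors are seven-pass membrane proteins that couple to inhibitory G proteins and steer migrating leukocytes along gradients of small secreted ligands. A receptor's pattern marks where a T cell is equipped to go: CCR7, CXCR4 and CXCR5 serve traffic within lymphoid organs, CCR9 homing to thymus and small intestine, and CXCR3, CXCR6, CCR2, CCR8 and CX3CR1 entry into inflamed or peripheral tissue. In dendritic cells CCR7 guides mature cells to T cell zones.

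Of the 9 genes, 6 lie on mouse chromosome 9 and are listed here with GENCODE M21 positions on GRCm38. Cx3cr1 (ENSMUSG00000052336) spans 119901616 to 120069879 on the minus strand, and Ccr8 (ENSMUSG00000042262) follows 22.2 kb further on, at 120092114 to 120094906 on the plus strand. Ccr9 (ENSMUSG00000029530, 123678439 to 123784330), Cxcr6 (ENSMUSG00000048521, 123806475 to 123811760) and Ccr2 (ENSMUSG00000049103, 124101950 to 124113557) belong to a receptor cluster on the plus strand, and Cxcr5 (ENSMUSG00000047880, 44511787 to 44561877, minus strand) lies far from both groups. The others are Cxcr4 (ENSMUSG00000045382) on chromosome 1 at 128588199 to 128592293, Ccr7 (ENSMUSG00000037944) on chromosome 11 at 99144196 to 99155077 and Cxcr3 (ENSMUSG00000050232) on chromosome X at 101731535 to 101734269, all on the minus strand. Cxcr6 lies inside the span of Fyco1, which is transcribed from the other strand. In T cells Fyco1 read 9.04 to 16.04 TPM, while Cxcr6 read 52.8 to 58.5 TPM. In cDC2s Fyco1 read 29.3 to 38.6 TPM and Cxcr6 was listed at 0 in all 6 libraries.

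The bases before the RefSeq start site (GRCm38.p6) are given for Ccr8 and Cxcr3, which rose in Cd47ΔT T cells, and for Cxcr6, which did not pass the test. Of the 9 genes, 7 had an entry. Each is printed 5′ to 3′ on the gene's own strand, and ends before the first annotated exon. Capitals mark matches to motif letters searched on both strands, which in these 3 stretches occur upstream of Cxcr6 only.
Ccr8: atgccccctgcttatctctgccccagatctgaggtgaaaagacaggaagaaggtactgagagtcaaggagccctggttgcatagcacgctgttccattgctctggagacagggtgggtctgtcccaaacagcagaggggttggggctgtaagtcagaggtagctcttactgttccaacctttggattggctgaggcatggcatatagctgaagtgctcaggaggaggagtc
Cxcr3: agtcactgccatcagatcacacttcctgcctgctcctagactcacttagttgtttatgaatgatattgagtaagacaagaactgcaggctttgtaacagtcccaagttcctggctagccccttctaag
Cxcr6: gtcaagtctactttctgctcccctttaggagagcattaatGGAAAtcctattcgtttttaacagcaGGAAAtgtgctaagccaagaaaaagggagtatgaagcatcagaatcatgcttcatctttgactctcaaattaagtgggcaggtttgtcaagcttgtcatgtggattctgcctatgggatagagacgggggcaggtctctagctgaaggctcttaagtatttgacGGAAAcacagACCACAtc
The stretches are chr9:120091883-120092113 (plus strand), chrX:101734270-101734397 (minus strand) and chr9:123806227-123806474 (plus strand). The letters searched were TGTGGT (RUNX factors), GGTGTGA (T-box factors), TGANTCA (AP-1), TTCNNNGAA (STAT factors) and GGAAA (NFAT). In the full 250 bases before the start, the RUNX letters occurred in 3 of the 7 receptor windows (Cxcr3, Cxcr6 and Cx3cr1), against 14.0% of all 32851 windows of that length. The NFAT letters occurred in 4 (Ccr2, Cxcr4, Cxcr6 and Cx3cr1), against 55.6% of all windows. The T-box, AP-1 and STAT letters, present in 3.33%, 6.75% and 7.02% of all windows, were in none of the receptor windows. Windows were counted whole, also where they run into annotated exons. Of the RUNX matches, only that of Cxcr6 lies before the first annotated exon. The Cxcr3 match lies past its 128 printed bases, and the Cx3cr1 window begins inside an annotated exon. The Ccr2 window has 17 bases before such an exon, and its NFAT matches lie past them. The shares are therefore not shares of sequence free of exons. A match describes letters and is not a binding site.

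The libraries carried the defining genes of their labelled cell type. Cd3e, a subunit of the T cell receptor complex, read 414 to 514 TPM in T cells and 0 to 0.830 TPM in cDC2s. Zbtb46, a transcription factor of conventional dendritic cells, read 94.2 to 118 TPM in cDC2s and 0.180 to 1.12 TPM in T cells. Sirpa, the CD47 receptor, read 307 to 493 TPM in cDC2s. In T cells Sirpa was lower but not alike in the genotypes, at 2.35 ± 0.615 TPM (mean and SD) in controls and 21.9 ± 9.03 TPM in Cd47ΔT libraries. The targeted gene Cd47 read 138 and 233 TPM in control T cells and 40.4 and 51.7 TPM in Cd47ΔT T cells. Since no label says that replicates are separate mice, each p-value is set against library-to-library spread alone, and that spread may be technical.

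In control T cells the order of receptor levels, per length, ran from Ccr7 (416 ± 25.8 TPM, SD, n = 2) and Cxcr4 (237 ± 126) through Cxcr6 (53.5 ± 0.983), Cxcr3 (51.7 ± 9.48), Ccr9 (38.8 ± 3.78), Cxcr5 (20.0 ± 3.27) and Ccr2 (13.9 ± 5.17) to Cx3cr1 (1.43 ± 0.672) and Ccr8 (1.15 ± 0.226). Libraries of Cxcr6 and Cxcr3 overlapped in that order, and so did those of Cx3cr1 and Ccr8. In control cDC2s Ccr7 (48.4 ± 10.5 TPM, SD, n = 3) and Cxcr4 (35.3 ± 8.68) again led, followed by Cx3cr1 (10.7 ± 2.37) and Ccr2 (8.07 ± 1.74). Cxcr3, Ccr9 and Cxcr5 stood at 1.64 ± 0.783, 1.28 ± 0.390 and 0.303 ± 0.346 TPM there, and Ccr8 and Cxcr6 were listed at 0 in all 6 cDC2 libraries. Of these neighbours Ccr7 and Cxcr4, Cx3cr1 and Ccr2, and Cxcr3 and Ccr9 overlapped. Cx3cr1 was the one receptor with a higher mean in cDC2s than in T cells of either genotype, and its 4 groups ran from control cDC2s (10.7 TPM) over Cd47ΔT cDC2s (8.97) and Cd47ΔT T cells (6.07) to control T cells (1.43). The 2 cDC2 groups overlapped in that order.

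**Figure D1:**
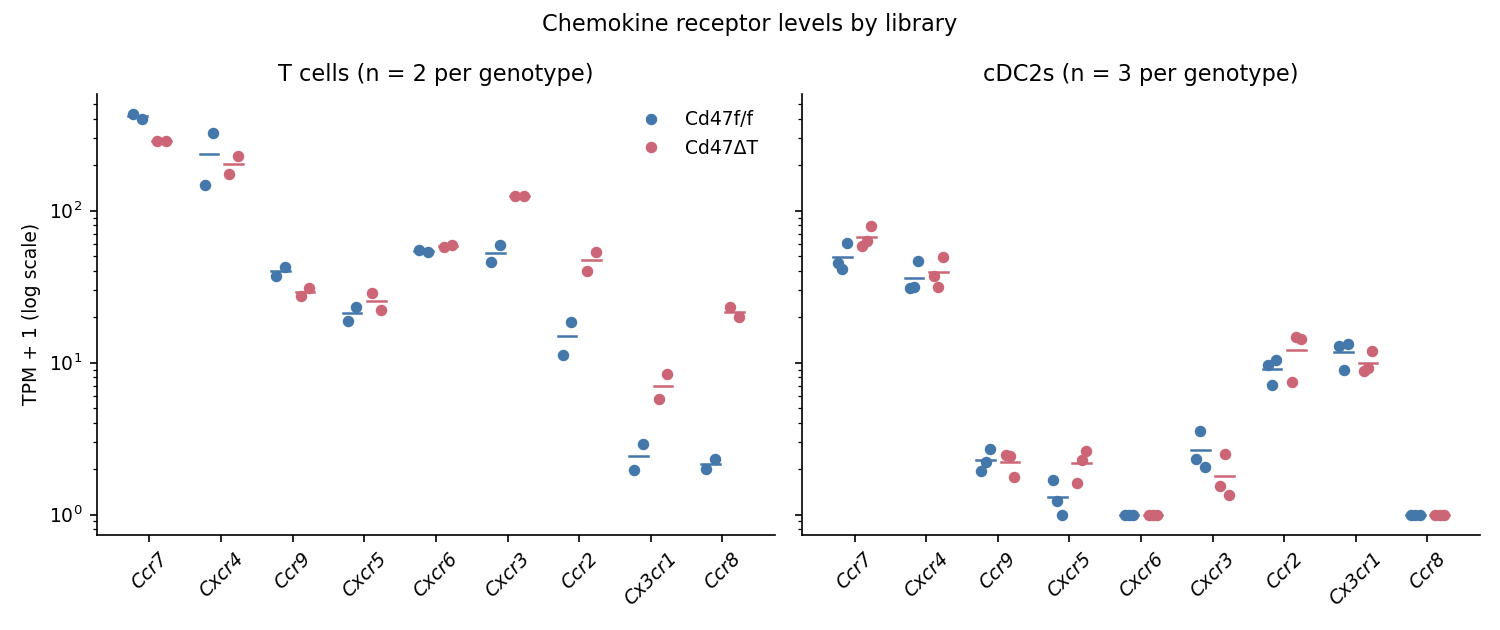
TPM + 1 of the 9 receptors on a log axis, T cells left and cDC2s right; points are libraries (blue Cd47f/f, red Cd47ΔT) and short lines are group means. In T cells Ccr8, Ccr2, Cx3cr1 and Cxcr3 of the Cd47ΔT libraries sit above both controls and Ccr7 below, while in cDC2s the genotypes overlap for every receptor.

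The first comparison asked how these receptors differ between T cells of Cd47ΔT and control mice. Ccr8, Ccr2, Cx3cr1 and Cxcr3, receptors of effector, regulatory or tissue-homing cells, were higher in Cd47ΔT T cells, by 17.8, 3.32, 4.26 and 2.40 times in mean TPM. Ccr7, the receptor for lymph node entry and T cell zones, was lower, at 0.686 of the control mean. Ccr9, Cxcr4, Cxcr5 and Cxcr6 did not pass the test. All 9 receptors were among the 12453 genes that reached 1 TPM in at least 2 T cell libraries. The test was limma on log2(TPM + 1) over all of these genes, with Benjamini-Hochberg adjustment and a call under 0.05, and each log2 fold change below is Cd47ΔT over Cd47f/f on that scale, which understates changes of low genes. Thus 5 of 9 receptors were called, against 9.37% of all tested genes. Of these, 4 were higher and 1 lower, where 8.5% of all genes were higher and 0.875% lower. An unadjusted p under 0.05 was found for 6 of 9, and for 21.6% of all genes. The median log2 fold change was 0.27 over the 9 receptors and 0.10 over all genes. A gene could pass the filter through the 2 libraries of 1 genotype alone, which largely sets its direction beforehand. This limits the counts over receptors and over the lists below. Ccr8 and Cx3cr1 each had 1 control library below 1 TPM and so needed Cd47ΔT libraries to pass the filter. TPM of the genotypes did not overlap for 7 of the 9, against 48.9% of all genes tested. Quantile and median-of-ratios scaling moved the median of all genes by -0.18 and -0.15, and the split of higher to lower genes from 1058 and 109 to 655 and 336 and to 942 and 263. In bulk RNA, more cells that carry a receptor and more of its RNA per cell cannot be told apart.

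**Figure D2:**
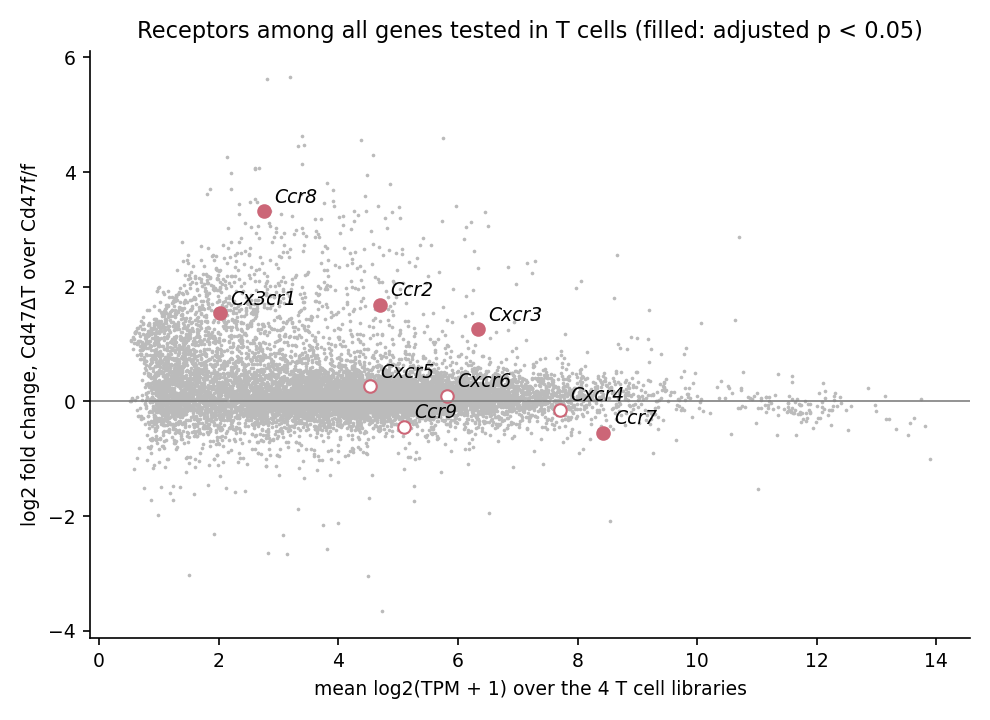
Log2 fold change of each gene tested in T cells (Cd47ΔT over Cd47f/f) against its mean log2(TPM + 1) over the 4 libraries; grey points are all 12453 genes and red circles the 9 receptors, filled where adjusted p was under 0.05. Ccr8 stands highest among the receptors at 3.32 and Ccr7, the most abundant, lowest at -0.54.

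Ccr8 encodes a receptor for CCL1 and is used as a marker of activated regulatory T cells in tissues. It read 0.990 and 1.31 TPM in the control libraries and 22.1 and 18.9 TPM in the Cd47ΔT libraries. Both Cd47ΔT values were far above both controls, which were near the filter of 1 TPM. The log2 fold change was 3.32 ± 0.22 (SE; limma adjusted p = 0.00196). Foxp3, the lineage factor of regulatory T cells, read 7.66 and 8.90 TPM in controls and 38.4 and 28.0 TPM in Cd47ΔT libraries (log2 1.87 ± 0.21, limma adjusted p = 0.00773). The ratio of Ccr8 to Foxp3 TPM, taken after the receptor values were seen, was 0.129 and 0.147 in controls and 0.577 and 0.673 in Cd47ΔT libraries, so Ccr8 increased by more than Foxp3 in these libraries. Regulatory T cell genes were higher in 6 of 12 and lower in none, with a median log2 fold change of 1.30. They included Tnfrsf4 (2.27 ± 0.22), Ikzf2 (1.88 ± 0.27) and Tnfrsf9 (1.71 ± 0.15).

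Cxcr3, the receptor for the interferon-induced ligands CXCL9 and CXCL10, is carried by T helper 1 and effector CD8 T cells. It read 44.99 and 58.39 TPM in controls and 124.6 and 123.1 TPM in Cd47ΔT libraries, which lay close together and above both controls. The log2 fold change was 1.26 ± 0.15 (limma adjusted p = 0.00933). Tbx21, a transcription factor that drives Cxcr3, rose with it from 16.8 ± 3.61 to 39.0 ± 4.19 TPM (log2 1.18 ± 0.20, limma adjusted p = 0.0190). The Cxcr3 to Tbx21 ratio was 3.16 and 3.02 in controls and 3.46 and 2.94 in Cd47ΔT libraries and overlapped. Effector genes were higher in 9 of 15 and lower in none (median log2 fold change 1.11), among them Gzma (2.85 ± 0.35), S1pr5 (1.59 ± 0.35) and Gzmb (1.56 ± 0.25).

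Ccr2, the receptor for CCL2 on inflammatory monocytes and on memory T cells, read 10.2 and 17.5 TPM in controls and 39.3 and 52.8 TPM in Cd47ΔT T cells. The lower Cd47ΔT value was above the higher control value. The log2 fold change was 1.69 ± 0.28 (limma adjusted p = 0.0183). Cx3cr1, the receptor for fractalkine on patrolling monocytes, macrophages and terminal effector T cells, read 0.950 and 1.90 TPM in controls and 4.74 and 7.39 TPM in Cd47ΔT libraries. It stayed low in both genotypes without overlap (log2 1.55 ± 0.31, limma adjusted p = 0.0310).

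Marker genes of other cells moved in the same libraries as these 4 receptors. Monocyte markers (receptors left out) were higher in 7 of 8, with a summed level of 786 to 938 TPM in controls and 2075 to 2139 TPM in Cd47ΔT libraries. Most of that sum was Ly6c2, which CD8 T cells also express (667 ± 101 and 1722 ± 22.3 TPM). The monocyte gene Csf1r rose from 3.29 ± 1.34 to 27.8 ± 10.1 TPM (log2 2.74 ± 0.33). Natural killer cell markers were higher in 8 of 10 (summed level 88.7 to 129 against 308 to 491 TPM), red pulp macrophage markers in 10 of 10 (23.6 to 29.2 against 177 to 277 TPM) and B cell markers in 6 of 7 tested (17.5 to 21.5 against 66.5 to 145 TPM). Plasma cell, dendritic cell and neutrophil markers summed to 94.6 to 109.8, 78.8 to 112 and 1.94 to 5.28 TPM in controls and to 404 to 443, 402 to 683 and 26.1 to 88.5 TPM in Cd47ΔT libraries. Erythroid markers were higher in 4 of 5 tested (20.3 to 28.1 against 75.1 to 140 TPM) and plasmacytoid dendritic cell markers in 4 of 7 (106 to 117 against 182 to 241 TPM). Gzma is both in the natural killer list and in the effector list, and effector T cells express other members of the former. No marker of the monocyte, natural killer, macrophage and B cell lists was at 0 in both libraries of a genotype. T cell markers were called in 0 of 10 by limma, with 2 at an unadjusted p under 0.05 (summed level 4612 to 4759 against 4295 to 4710 TPM). The part of these cells in the receptor values was not tested.

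Ccr7, which binds CCL19 and CCL21, read 435 and 398 TPM in controls and 286 and 285 TPM in Cd47ΔT T cells. The 2 Cd47ΔT libraries were nearly equal and below both controls (log2 -0.54 ± 0.10, limma adjusted p = 0.0257). It was the most abundant of the receptors in each T cell library, at 58.2% and 43.3% of their summed TPM in controls and 37.6% and 34.6% in Cd47ΔT libraries. Cxcr3 made up 6.02% and 6.35% of that sum in controls and 16.4% and 14.9% in Cd47ΔT libraries. The sum itself overlapped between the genotypes (747 and 920 TPM, against 761 and 824 TPM). The naive T cell genes fell in 5 of 10 and rose in none (median log2 fold change -0.53), among them Actn1 (-0.87 ± 0.15), Il7r (-0.71 ± 0.12), Tcf7 (-0.67 ± 0.0921) and Lef1 (-0.66 ± 0.11).

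**Figure D3:**
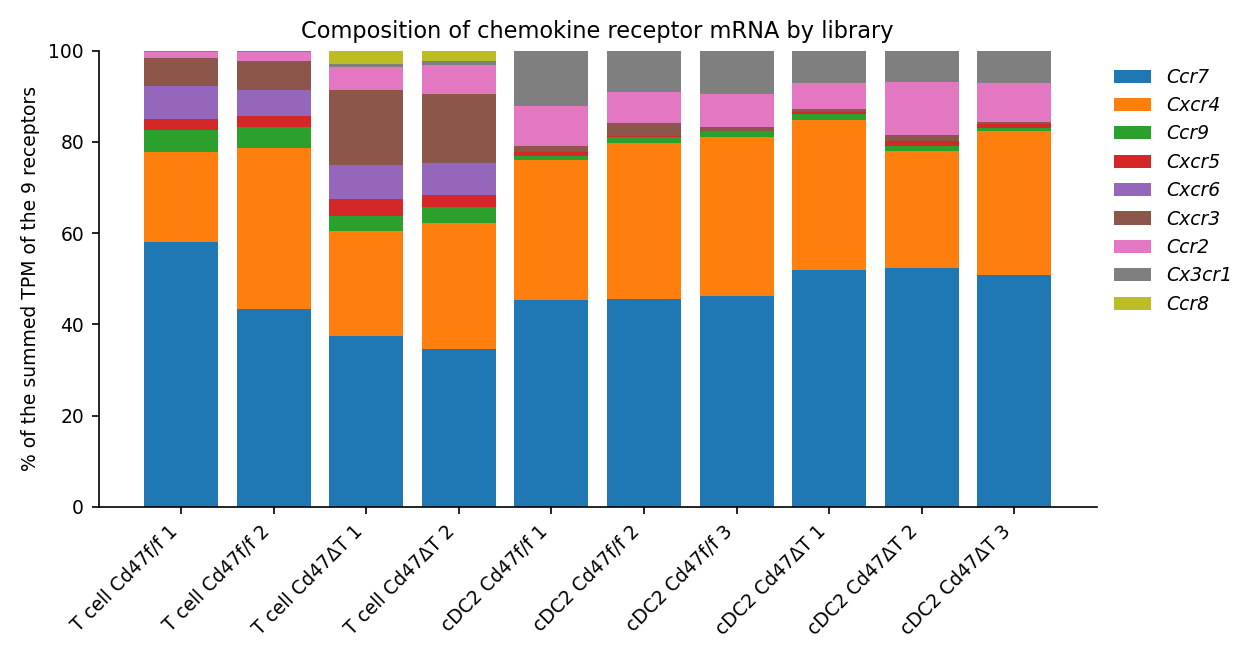
Stacked bars give each receptor's percentage of the summed TPM of the 9 receptors in every library. Ccr7 goes from 58.2% and 43.3% in control T cells to 37.6% and 34.6% in Cd47ΔT T cells, and in cDC2s runs from 45.3% to 46.3% in controls and from 50.9% to 52.3% in Cd47ΔT mice.

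The other 4 receptors did not pass. Ccr9, the receptor for CCL25 found on naive CD8 T cells, read 36.2 and 41.5 TPM in controls and 26.6 and 30.1 TPM in Cd47ΔT libraries without overlap (log2 -0.44 ± 0.16, limma adjusted p = 0.161). Under quantile and median-of-ratios scaling its adjusted p by limma was 0.0418 and 0.0314 (as low as 0.0314 over all alternatives). Cd4 fell in the same libraries, from 170 and 190 to 108 and 60.2 TPM (log2 -1.15 ± 0.26, limma adjusted p = 0.0481). Cd8a rose, from 331 and 380 to 499 and 514 TPM (log2 0.51 ± 0.11, limma adjusted p = 0.0367), so that the ratio of Ccr9 to Cd8a went from 0.109 in both controls to 0.0533 and 0.0587.

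Cxcr4, the CXCL12 receptor, had control libraries far apart (148 and 326 TPM), and the Cd47ΔT libraries (174 and 227 TPM) lay between them. Its log2 fold change of -0.14 ± 0.35 therefore has a wide 95% interval, from -1.002 to 0.72. Without control library 2 its sign turned, to 0.43, and without Cd47ΔT library 1 to 0.0497. Cxcr5, the CXCL13 receptor that brings follicular helper T cells and B cells to follicles, read 17.7 and 22.4 TPM in controls and 27.8 and 21.2 TPM in Cd47ΔT libraries, which overlapped (log2 0.27 ± 0.21, 95% interval -0.23 to 0.77). Follicular helper genes were higher in 4 of 9 tested (8.5% of all genes), led by Pdcd1 (2.41 ± 0.27), an inhibitory receptor also found on other activated T cells. Cebpa, among those 4, was below 1 TPM in both controls and passed the filter through the Cd47ΔT libraries alone. The rest, Bcl6 (-0.0218 ± 0.20), Slamf6 (-0.0405 ± 0.14), Sh2d1a (0.18 ± 0.13), Icos (0.43 ± 0.19) and Il4 (0.77 ± 0.28), did not pass the test. Cxcr6, the CXCL16 receptor of memory, resident and natural killer T cells, read 54.2 and 52.8 TPM in controls and 56.5 and 58.5 TPM in Cd47ΔT libraries. Its log2 fold change was 0.10 ± 0.12 with a 95% interval of -0.20 to 0.40, and turned to -0.0194 and -0.0518 under quantile and median-of-ratios scaling.

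With no filter on low values limma called none of the 9 receptors in T cells (adjusted p from 0.0608 for Ccr8 to 0.132 for Cx3cr1 among the 5), and the same 6 kept an unadjusted p under 0.05. The call of Ccr7 was also lost with median-of-ratios scaling (adjusted p by limma 0.0528), without a variance trend (0.103), in 1 fit of all libraries (0.141) and without either Cd47ΔT library (0.219 and 0.214; 0.000122 to 0.219 over all alternatives), and that of Cx3cr1 with quantile scaling (0.0618) and on leaving out control library 1 (0.0792; range of the alternatives 1.61e-07 to 0.132).

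The receptor cluster on chromosome 9 from Ccr9 to Ccr2 (123678439 to 124113557, 435 kb) held 9 protein-coding genes of the table, 7 of them tested in T cells. Its members did not move alike. At one end, Ccr9 and Cxcr6 did not pass, and neither did the genes Lztfl1 (log2 -0.10 ± 0.27) and Fyco1 (0.0554 ± 0.28) beside them. At the other end, Ccr3 (log2 1.75 ± 0.26) and Ccr2 (1.69 ± 0.28), both genes for receptors of inflammatory chemokines, were higher (limma adjusted p = 0.0136 and 0.0183). Ccr1, just before them, had a log2 fold change of 0.92 ± 0.22 (adjusted p = 0.0581). Of the 50-base words in Ccr9 transcripts 20.1% occurred in other genes on either strand, and 1.91% of those in Ccr2. The share was 1.86% for Cxcr5, 1.06% for Cx3cr1 and 0 for the other 5 receptors. The Ccr9 values may be less certain for this, which was not tested. Among the genes that share Ccr9 words, Gm17200 read 0 to 0.07 TPM in T cells and AC165425.1 was listed at 0 there. In the smaller group, Cx3cr1 and its neighbour Ccr8 were both higher, while Csrnp1 (-0.16 ± 0.16), Gorasp1 (-0.32 ± 0.22) and Wdr48 (0.00540 ± 0.17), whose genes overlap the Cx3cr1 span, did not pass.

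**Figure D4:**
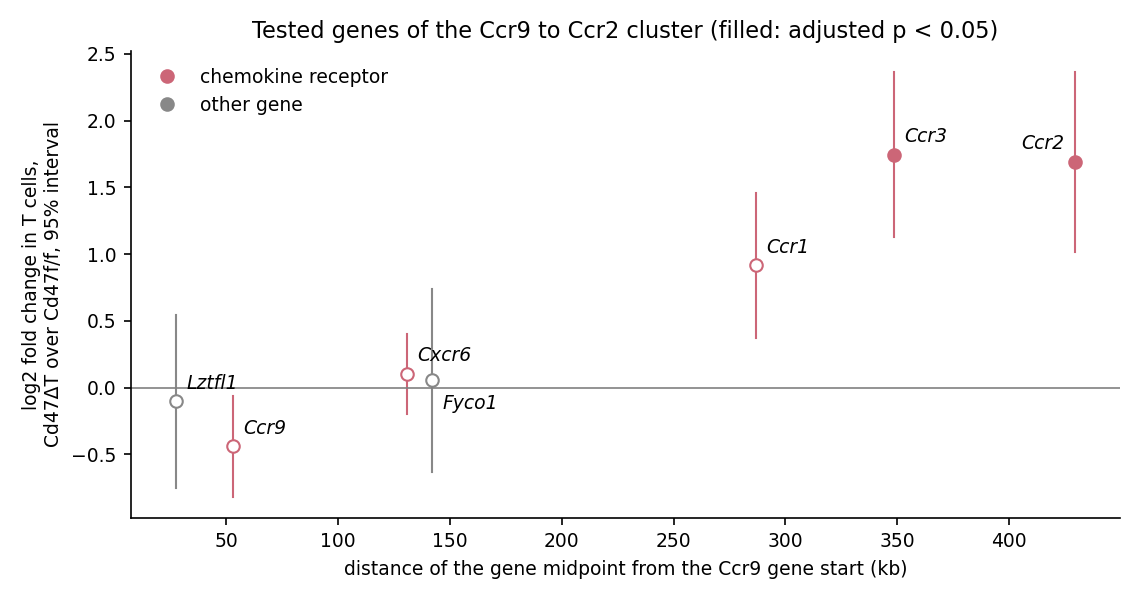
Log2 fold change in T cells with its 95% interval (limma) for the 7 tested genes of the Ccr9 to Ccr2 cluster, by distance of the gene's midpoint from the Ccr9 start in kb; receptors are red, other genes grey, and filled points had adjusted p under 0.05. Ccr3 and Ccr2 lie at 1.75 and 1.69, while Cxcr6 lies at 0.10 and Ccr9 at -0.44. Ccr1 and Ccr3 needed Cd47ΔT libraries to pass the filter.

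Among the other chemokine receptors listed, 7 of 16 were tested in T cells, and 4 were higher and none lower (median log2 fold change 1.52). Beside Ccr3 they included Ccrl2, an atypical receptor that binds chemerin (0.475 ± 0.361 to 5.43 ± 0.156 TPM, log2 2.15 ± 0.26), and Ccr6, the CCL20 receptor (2.60 ± 1.19 to 9.07 ± 0.672 TPM, log2 1.52 ± 0.28). Ccrl2, and Ccr1 among those not called, were below 1 TPM in both controls and entered the test through the Cd47ΔT libraries alone. Ccr3 had 1 control library below 1 TPM and so needed Cd47ΔT libraries to pass. Ccr4 read 6.29 ± 1.56 and 10.6 ± 1.52 TPM and did not pass (limma adjusted p = 0.158). Of 15 genes for ligands of the 9 receptors only 3 were tested in T cells, and 2 of them were higher. These were the CXCR3 ligand Cxcl10 (1.27 ± 0.127 to 10.1 ± 0.417 TPM, log2 2.29 ± 0.21) and the CCR8 ligand Ccl1 (0.265 ± 0.148 to 4.79 ± 0.127 TPM, log2 2.20 ± 0.23). Ccl1 too was tested only because the Cd47ΔT libraries reached 1 TPM, so the filter largely set its direction. Ccl25, the CCR9 ligand, read 2.95 ± 0.368 and 3.07 ± 0.424 TPM.

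All 30 signalling genes downstream of the receptors were tested, and 3 were higher and none lower. Over all genes tested, 8.5% were higher and 0.875% lower. The median log2 fold change of the 30 was 0.0984, near that of all genes. Those 3 were Rgs1, which dampens chemokine receptor signals (13.7 ± 2.87 to 38.0 ± 2.40 TPM, log2 1.43 ± 0.19), the G protein subunit gene Gng2 (34.2 ± 4.93 to 73.3 ± 4.44 TPM, log2 1.09 ± 0.15) and the low Rgs18 (1.23 ± 0.23). Rgs18 was below 1 TPM in both controls and passed the filter through the Cd47ΔT libraries alone, which largely set its direction. Other chemoattractant receptors moved in both directions, with 5 of 15 tested higher and 2 lower, beside the same shares of all genes. The lower ones were S1pr1, through which T cells leave lymphoid organs (291 ± 21.5 to 193 ± 2.47 TPM, log2 -0.59 ± 0.11), and Gpr183, the oxysterol receptor (47.7 ± 0.0778 to 31.7 ± 0.141 TPM, log2 -0.58 ± 0.13). The higher ones with the largest changes were the leukotriene receptor gene Ltb4r1 (2.11 ± 0.25) and Gpr35 (1.75 ± 0.31), beside the formyl peptide receptor gene Fpr1 (1.60 ± 0.24) and S1pr5, and the remaining one was Fpr2, named after its value was seen. Gpr35, Fpr1 and Fpr2 were below 1 TPM in both controls and passed the filter through the Cd47ΔT libraries alone. Their direction was thus largely set by the filter. Ltb4r1 and S1pr5 each had 1 control library below 1 TPM and so also needed Cd47ΔT libraries to pass the filter. The count of 5 higher genes therefore rests wholly on genes that needed those libraries.

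The second comparison asked whether the receptors differ in cDC2s between Cd47ΔT and control mice. Of the 9 receptors, 6 were tested, since Ccr8, Cxcr5 and Cxcr6 did not reach 1 TPM in 3 of the 6 libraries. None was called by limma, where 0.63% of all 12058 tested genes were, and 1 of 6 (Ccr7) had an unadjusted p under 0.05, against 13.4% of all genes. TPM of the genotypes overlapped for all 6, against 19.9% of genes without overlap. Quantile, median-of-ratios and protein-coding scaling changed the split of higher and lower genes from 30 and 46 to 34 and 36, 40 and 35, and 33 and 26.

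Ccr7, which mature dendritic cells switch on to migrate, read 44.3, 40.5 and 60.3 TPM in control cDC2s and 57.6, 62.3 and 78.5 TPM in Cd47ΔT cDC2s. Control library 3 exceeded the lowest Cd47ΔT library. The log2 fold change was 0.45 ± 0.18 (95% interval 0.0328 to 0.87, limma adjusted p = 0.331, 0.199 to 0.576 over all alternatives). As a share of the summed TPM of the 9 receptors, Ccr7 made up 45.3%, 45.6% and 46.3% in controls and 52.0%, 52.3% and 50.9% in Cd47ΔT libraries. In the same libraries 3 of 9 cDC2 markers fell and none rose. These were Itgam (72.9 ± 6.22 to 21.5 ± 3.26 TPM, log2 -1.72 ± 0.14), Cd209a (91.2 ± 10.1 to 31.0 ± 6.48 TPM, log2 -1.54 ± 0.17) and Cd4 (166 ± 19.0 to 85.1 ± 6.83 TPM, log2 -0.96 ± 0.12), with limma adjusted p = 0.0120, 0.0200 and 0.0203. The part of this shift in the Ccr7 values was not tested. Genes of migratory dendritic cells were higher in 2 of 14 tested and lower in none, with a median log2 fold change of 0.53 against -0.0729 for all genes. The 2 were the NF-kB subunit gene Relb (272 ± 13.6 to 415 ± 30.3 TPM, log2 0.61 ± 0.0905) and Samsn1 (90.2 ± 3.63 to 144 ± 8.9999 TPM, log2 0.66 ± 0.0934).

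Ccr2 read 8.63, 6.11 and 9.46 TPM in control and 6.47, 13.8 and 13.3 TPM in Cd47ΔT cDC2s (log2 0.38 ± 0.31, 95% interval -0.33 to 1.10). Cx3cr1, which marks part of the cDC2s, read 11.85, 8.0 and 12.32 TPM in controls and 7.77, 8.26 and 10.9 TPM in Cd47ΔT libraries (log2 -0.22 ± 0.23, 95% interval -0.76 to 0.31). Cxcr4 read 30.2, 30.3 and 45.3 TPM against 36.3, 30.6 and 48.6 TPM (log2 0.12 ± 0.22, 95% interval -0.38 to 0.63), with the highest value of each genotype in library 3. For these 3 genes the genotypes overlapped, and the intervals reach both sides of 0.

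The low receptors overlapped too. Cxcr3 read 1.33, 2.53 and 1.06 TPM in controls and 0.550, 1.52 and 0.340 TPM in Cd47ΔT cDC2s (log2 -0.56 ± 0.38). Ccr9 read between 0.770 and 1.70 TPM in all 6 libraries (log2 -0.0408 ± 0.31), and its sign turned under median-of-ratios scaling. Cxcr5 was not tested and read 0.680, 0.230 and 0 TPM in controls and 0.620, 1.28 and 1.63 TPM in Cd47ΔT libraries. B cell markers, whose cells carry Cxcr5, summed to 221 to 274 TPM in control and 122 to 170 TPM in Cd47ΔT cDC2 libraries. Most of that sum was Cd22 (211 ± 29.5 and 111 ± 26.8 TPM), while Ms4a1 (7.71 ± 1.01 and 10.2 ± 0.354 TPM) and Blk (7.91 ± 0.359 and 10.2 ± 0.994 TPM) had higher means in Cd47ΔT libraries. Limma called 0 of 5 tested B cell markers, with 1 at an unadjusted p under 0.05, and their median log2 fold change was 0.25. T cell markers summed to 14.95 to 23.38 and 19.1 to 23.1 TPM, with Cd3g, Themis and Bcl11b at 0 in all 6 libraries. Most of that sum was Cd5 (16.6 ± 2.67 and 16.95 ± 5.06 TPM), and only 2 of the 10 T cell markers were high enough to test. The part of B or T cells in these receptor values was not tested.

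Of the other chemokine receptors, 6 of 16 were tested in cDC2s and none was called by limma. An unadjusted p under 0.05 was found for 2 (Ackr1 and Ccr6), and for 13.4% of all genes. Both were named after their values were seen. Ackr1 read 17.7 ± 1.11 and 11.5 ± 0.648 TPM (log2 -0.57 ± 0.15, limma adjusted p = 0.149). Ccr6 went the other way, at 34.2 ± 7.02 and 50.5 ± 4.11 TPM (log2 0.56 ± 0.16, limma adjusted p = 0.187). Of the ligand genes 5 of 15 were tested and none was called by limma or had an unadjusted p under 0.05. Cxcl16, the CXCR6 ligand, was the highest of them, at 32.4 ± 7.12 and 36.0 ± 5.69 TPM. None of the 30 signalling genes was called by limma. Among them 8 had an unadjusted p under 0.05, all lower in Cd47ΔT cDC2s, where 13.4% of all genes had such a p. The median log2 fold change of the 30 was -0.153, against -0.0729 for all genes.

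**Figure D5:**
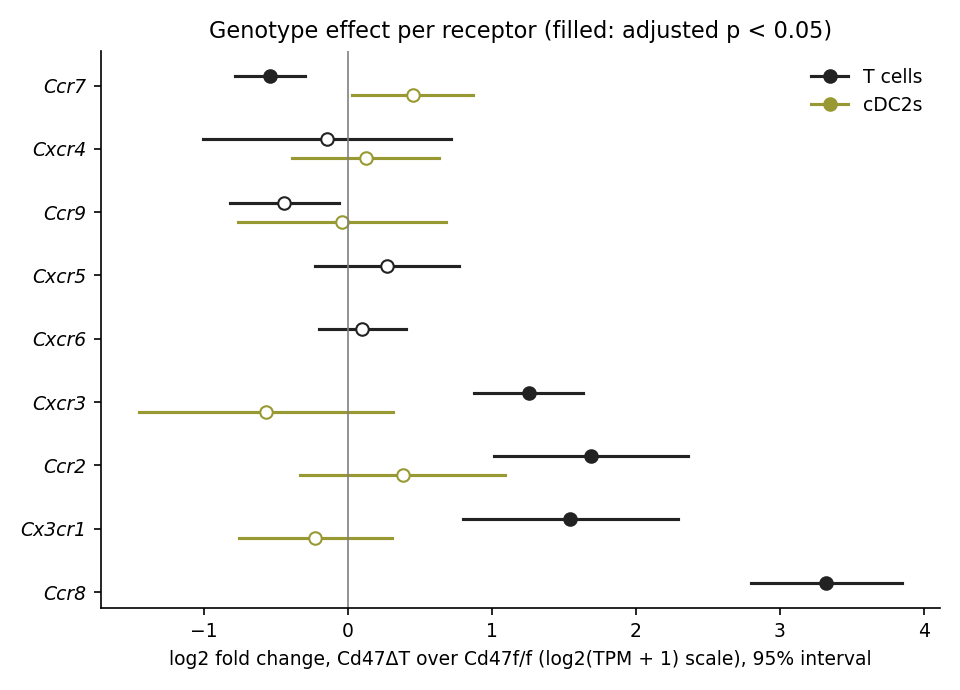
Log2 fold change of each receptor, Cd47ΔT over Cd47f/f, with its 95% interval (limma), T cells in black and cDC2s in olive, filled where adjusted p was under 0.05; Ccr8, Cxcr5 and Cxcr6 were not tested in cDC2s. Ccr7 lies at -0.54 in T cells and 0.45 in cDC2s, and Cxcr3 and Cx3cr1 are above 0 in T cells and below 0 in cDC2s.

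Whether the genotype effect differed between the cell types was tested as an interaction in a joint limma fit of the 10 libraries, with 10650 genes past both filters, among them 6 receptors. The effect in T cells exceeded that in cDC2s for Cxcr3 (difference 1.82 ± 0.44 on the log2 scale, adjusted p = 0.0302) and Cx3cr1 (1.77 ± 0.41, adjusted p = 0.0235). It was below that in cDC2s for Ccr7 (-0.99 ± 0.25, adjusted p = 0.0376). So 3 of 6 receptors were called, against 5.7% of all genes, with 2 higher in T cells (5.4% of all genes) and 1 lower (0.3%). Ccr2 (1.31 ± 0.46), Ccr9 (-0.40 ± 0.35) and Cxcr4 (-0.27 ± 0.44) did not pass (adjusted p = 0.158, 0.701 and 0.868). Ccr8 was outside this test, being listed at 0 in cDC2s, and Cxcr3 was near the filter there (0.340 to 2.53 TPM). Over 20 alternatives for Ccr7 and 19 each for Cxcr3 and Cx3cr1, limma's adjusted p was under 0.05 in 10, 8 and 12, and ran from 0.00907 to 0.169, 0.00547 to 0.178 and 0.0183 to 0.194. The Ccr7 call was lost without any 1 T cell library (0.0714 to 0.169), control cDC2 library 1 or 2 (0.0791 and 0.0668) or Cd47ΔT cDC2 library 2 or 3 (0.0547 and 0.0661). That of Cxcr3 was lost without any 1 T cell library (0.0591 to 0.178) or Cd47ΔT cDC2 library 1 or 3 (0.0620 and 0.0531). It was also lost under each other scaling (quantile 0.0690, median-of-ratios 0.0643, protein-coding 0.0685), with a pseudocount of 0.1 (0.0893) and with no filter (0.0804). Cx3cr1 lost it without T cell control library 1 (0.134), T cell Cd47ΔT library 2 (0.194), control cDC2 library 1 (0.0519) or Cd47ΔT cDC2 library 1 (0.0536), and with quantile scaling (0.0918), a pseudocount of 5 (0.0580) or no filter (0.0601). Ccr7 lost it with no filter (0.0872) and no variance trend (0.0843) too. Quantile and median-of-ratios scaling moved the median difference of all genes by -0.23 and -0.22, and the split of higher and lower genes from 575 and 32 to 307 and 76 and to 424 and 82.

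The genes most like each receptor were taken by Pearson r of log2(TPM + 1) over the 10 libraries, among 11176 other protein-coding genes. These r are a description over libraries that share kit with cell type. For Ccr2, Ccr8 and Cxcr3 both Cd47ΔT T cell libraries stood highest, apart from all others. The same held narrowly for Cxcr6 (56.5 and 58.5 TPM, against 54.2 and 52.8 TPM in control T cells). Cxcr6 was closest to Dapl1, Cd3g and Skap1 (r from 0.9998 to 0.9999), genes found in T cells. Ccr8 was closest to Cpa3, Klk1b27 and Penk (0.9994, 0.9960 and 0.9934), and Cx3cr1 to the macrophage genes Csf1r and Mpeg1 and to Ceacam1 (0.9889, 0.9809 and 0.9836). Ccr2 was closest to Hemgn, Fpr1 and Ppp1r1b (0.9690, 0.9589 and 0.9561), Ccr7 to Tesc, Ssu72 and Limd2 (0.9927, 0.9916 and 0.9911) and Ccr9 to Cd55, Itm2a and Mturn (0.9979, 0.9977 and 0.9976). For Cxcr3 these were Itgal, Rcn1 and Pgk1 (0.9956, 0.9951 and 0.9950), for Cxcr4 Spin1, Tgoln1 and Dnah8 (0.9944, 0.9909 and 0.9906) and for Cxcr5 Polr2h, Pdrg1 and Maz (0.9948, 0.9946 and 0.9945).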

How the data were processed

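The authors deposited 1 table of TPM, with 45706 Ensembl genes and 10 libraries that each sum to about 1000000. STAR, RSEM and DESeq2 and the build GRCm38 are named in the submitters' processing notes, without versions. Read depth is unknown from TPM, and no counting interval is given. The sources used here do not give the counting's strand setting. Symbols and positions came from GENCODE M21 (GRCm38), which matched 45143 identifiers (98.8%), and upstream sequences from RefSeq (GRCm38.p6).

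Genes reaching 1 TPM in 2 T cell or 3 cDC2 libraries were tested on log2(TPM + 1) with limma 3.58.1 in R 4.3.3 (lmFit, eBayes with a variance trend, two-sided), within each cell type and, for the difference of the genotype effects, in 1 fit of all libraries. p-values were adjusted by Benjamini-Hochberg over all genes tested and called under 0.05. The 9 receptors were always named. Of each other list up to 4 members past the threshold with the largest change were named, as were the 3 genes most like each receptor and genes overlapping or lying among them. Receptors, lists and tests were chosen with earlier results of these data known. Alternatives were pseudocounts of 0.1 and 5, no filter or one of 5 TPM, 3 other scalings, other variance settings, 1 joint fit, a block for the replicate number and leaving out each library. The steps were tested on simulated data. Some list members are not reported here by name. Tables and plots were made in Python 3.11.15 with matplotlib 3.10.9, numpy 2.4.6 and pandas 2.3.3.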

Additional observations from a re-analysis of the deposited data

Results flagged for a closer look

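For 3 receptors the genotype effect differed between T cells and cDC2s by limma's interaction test. The effect on Ccr7 in T cells minus that in cDC2s was -0.99 on the log2 scale (adjusted p = 0.0376), Ccr7 being lower in both Cd47ΔT T cell libraries than in both controls and 0.45 ± 0.18 higher in cDC2s. For Cxcr3 the difference was 1.82 (adjusted p = 0.0302), and for Cx3cr1 1.77 (adjusted p = 0.0235). In cDC2s none of the 3 passed the test on its own, and libraries of the genotypes overlapped. Cxcr3 read 0.340 to 2.53 TPM there, near the filter of 1 TPM. Its log2 fold change in cDC2s was -0.56, and -1.08 and -0.19 with pseudocounts of 0.1 and 5.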

How the results depend on the processing

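Over all alternatives, 300 of 351 values of single receptors kept their direction and their side of the threshold, 40 lost and 2 gained the call, and 9 changed sign. None that changed sign had been called: in T cells Cxcr4 (0.43 without control library 2, 0.0497 without Cd47ΔT library 1; -0.71 to 0.43 over the left-out libraries) and Cxcr6 (-0.0194 with quantile and -0.0518 with median-of-ratios scaling), in cDC2s Ccr9 (0.00427 with median-of-ratios scaling, 0.0881 without control library 3, 0.115 without Cd47ΔT library 3; -0.15 to 0.115) and Cxcr4 (-0.0528 without Cd47ΔT library 3; -0.0528 to 0.31), and between the cell types Cxcr4 (0.30 without T cell control library 2; -0.83 to 0.30). The 5 receptor calls in T cells became 0 with no filter and 4 to 5 when a library was left out, and in cDC2s limma called 0 in each alternative. Of the 3 calls between cell types none was left unfiltered, where limma's 1 call was Ccr8 (adjusted p = 0.000333; 0 in cDC2s), while the 3 had unadjusted p under 0.05. They became 1 at 5 TPM (3 receptors left to test), 1 with quantile scaling and 0 to 3 when a library was left out. Over all genes, the 1167 calls in T cells became 15 unfiltered, 758 at 5 TPM and 738 to 1890 without a library (1890 on leaving out control library 2, and 738 and 744 on leaving out Cd47ΔT library 1 or 2). The 76 calls in cDC2s became 6 with no filter, 12 without a variance trend, 171 in 1 fit of all libraries and 0 to 15 without any 1 library, and the 607 between cell types became 949 with no filter, 395 with the 5 TPM filter, 383 with quantile scaling and 214 to 613 without a library (335 without T cell control library 1, 237 and 214 without T cell Cd47ΔT library 1 or 2). The cause of these changes was not tested. With the replicate number as a block, calls over all genes went to 2296 in T cells and 4 in cDC2s, and receptor calls stayed at 5, 0 and 3. The labels do not pair the numbers: deviations of same-numbered libraries correlated at 0.19 in T cells, and at -0.0438, 0.0591 and 0.119 in cDC2s. A T cell library left alone in its group is taken to vary as the other group does.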
